A study of Mus musculus with 4 samples.

Results

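Transcripts of 35 genes for the synthesis, control and handling of cholesterol and fatty acids were followed through the cell types of the neonatal mouse testis, with and without deletion of Cnot3 in germ cells. The genes were taken by symbol from a list drawn up with earlier results of these data known, and all 35 were present among the 30828 genes of both deposited matrices. Of these, 17 encode enzymes of cholesterol synthesis, 5 control the sterol-sensing transcription factors, 9 make, desaturate or elongate fatty acids, and 4 move or store cholesterol. Another 50 lipid genes were listed beside them for comparison.

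Cells build cholesterol from acetyl-CoA through mevalonate, isoprenoid diphosphates, squalene and lanosterol. The transcription factors SREBP1 and SREBP2 (genes Srebf1 and Srebf2) are escorted by SCAP from the endoplasmic reticulum to the Golgi when sterols are low, and the INSIG proteins hold them back when sterols are plentiful, so that genes of the pathway are commonly induced together. In the testis, cholesterol also serves as the precursor of androgens in Leydig cells, while Sertoli cells, which nurse the germ cells, and the germ cells themselves need sterols and fatty acids for membranes.

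The 2 genotypes were compared at postnatal day (P) 8. Control mice carried 2 floxed Cnot3 alleles without Cre (Cnot3flox/flox, labelled wild-type), and Cnot3-cKO mice carried the same alleles with Ddx4-creER, a tamoxifen-inducible Cre driven from a germ-cell gene; both were injected with 4-hydroxytamoxifen (4-OHT) as newborns. CNOT3 is a subunit of the CCR4-NOT complex, which shortens mRNA poly(A) tails. The methods give injections from P1 to P3, whereas the labels of the samples start at P1 and end on a different day in each of the 4 samples, P1 and P2 for control and P3 and P4 for Cnot3-cKO, so dosing and genotype cannot be told apart if the labels hold. Testis cells were stained for CD9 and THY1 and sorted to enrich germ cells, and 3' transcript ends were counted with unique molecular identifiers (UMIs). Each genotype had 2 samples, merged in 1 matrix whose barcodes do not show their sample. It was not stated whether the 2 samples were separate libraries or 2 sequencing runs of 1 library. The samples could not be told apart, so no difference between genotypes could be tested, and every interval below is a 95% interval for counting error alone.

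The control matrix held 181550221 UMIs and the Cnot3-cKO matrix 168770743, and 7761 and 8820 barcodes passed the filters. They fell into germ-like (1113 control and 460 Cnot3-cKO barcodes), Sertoli-like (2875 and 4347), peritubular myoid-like (1247 and 1573), stromal-like (2404 and 2307), macrophage-like (48 and 56) and endothelial-like (30 and 38) classes, named from marker lists with all lipid genes left out of the clustering. Median depth per barcode was 41593 and 45117 UMIs in germ-like cells and between 10132 and 17404 in the others. Levels are given as UMIs per 1000000 UMIs of a class (CPM), control first and Cnot3-cKO second. The 11 germ markers summed to 4154 and 3938 CPM in germ-like cells against 75.9 and 63.2 in Sertoli-like cells. Myoid-like cells carried stromal markers at 7447 and 7957 CPM beside myoid markers at 3752 and 3081. No Leydig-like cluster was found, and the 6 Leydig markers reached 21.1 and 36.2 CPM in stromal-like cells. Only 18 called barcodes, 0.216% of control and 0.193% of Cnot3-cKO, had the same sequence in both libraries. In germ-like cells Cnot3 itself stood at 70.2 CPM in control and 37.8 CPM in Cnot3-cKO (log2 ratio -0.90, -1.01 to -0.78) and at 63.8 and 67.4 in Sertoli-like cells, which the germ-cell Cre does not target.

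Log2 ratios are Cnot3-cKO over control. Since each UMI stands for 1 transcript 3' end, levels of different genes were not divided by length. Shares of counts that came from free RNA were estimated from the profile of near-empty barcodes, at 5.23% and 4.74% of UMIs in germ-like and 2.28% and 2.03% in Sertoli-like cells.

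Germ-like and Sertoli-like cells carried the cholesterol synthesis transcripts at the highest levels, with different enzymes in the lead. The 17 genes summed to 670 CPM (95% interval 663 to 678) in control germ-like cells and 670 (662 to 678) in control Sertoli-like cells, against 365 in myoid-like, 355 in stromal-like, 318 in macrophage-like and 333 in endothelial-like cells of the same library. In the Cnot3-cKO library germ-like cells led with 755 CPM (744 to 767), followed by Sertoli-like cells with 677, stromal-like with 343, endothelial-like with 298, macrophage-like with 296 and myoid-like with 275 CPM. Among control classes, the myoid-like and stromal-like intervals overlapped, as did those of the 2 small classes with either. In both libraries 13 of the 35 genes were highest in germ-like cells, 6 in Sertoli-like, 4 in macrophage-like, 2 in endothelial-like, 2 in stromal-like and 1 in myoid-like cells, and 7 had their highest class differ between libraries. The highest class of all other genes was not counted, so these counts do not show a trait of the set. Only 5 of the 35 genes reached 100 UMIs in macrophage-like and 1 in endothelial-like cells.

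**Figure D1:**
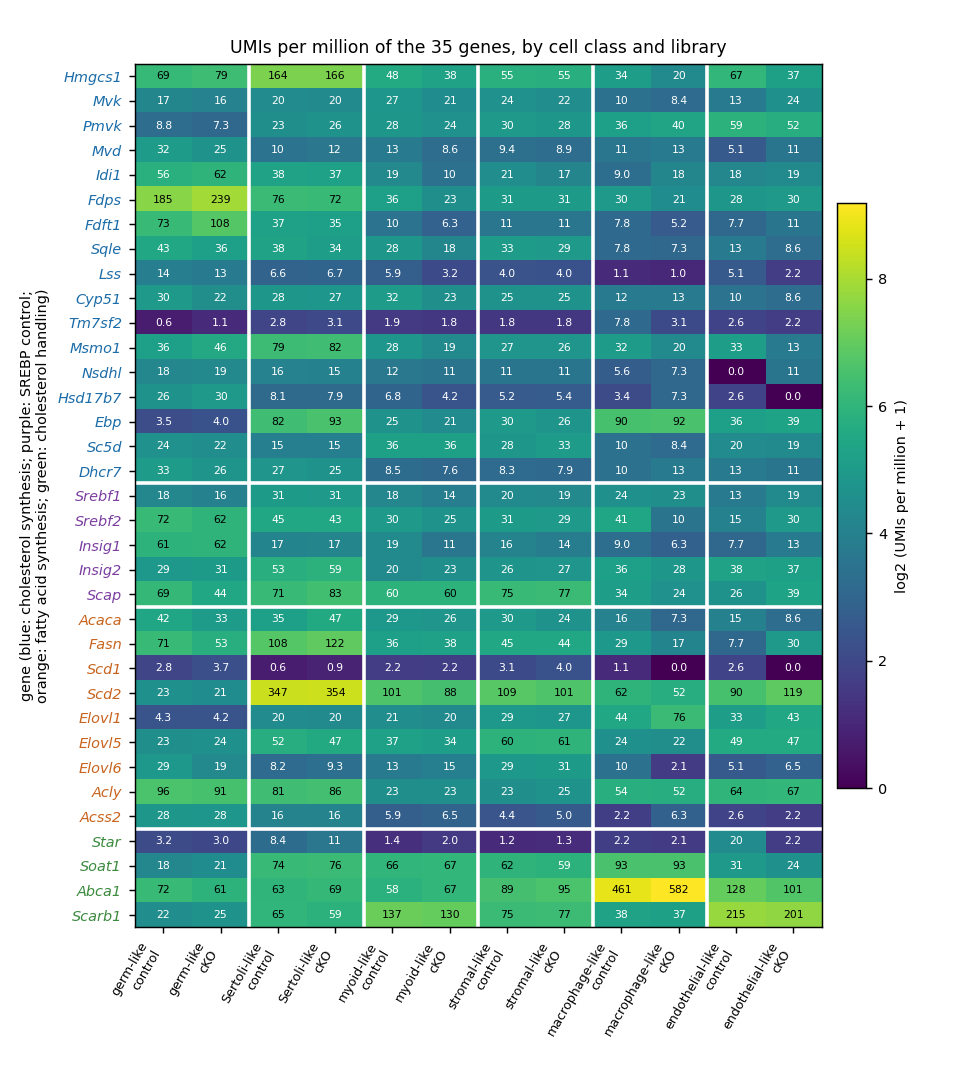
Level of each of the 35 genes (rows, names coloured by role) in the 6 cell classes of the control and Cnot3-cKO libraries (columns). Numbers are CPM and the colour scale is log2 of that value plus 1. Fdps leads the germ-like cells at 185 and 239, Scd2 the Sertoli-like cells at 347 and 354, and Abca1 the macrophage-like cells at 461 and 582.

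Of the 35 genes, 9 had at least a 2-fold higher level in the Sertoli-like class than in the germ-like class in both libraries and 6 were at least 2-fold higher in germ-like cells. Among all 12581 genes with at least 100 UMIs, 23.8% and 23.7% passed the same limits, so 9 of 35 (25.7%) and 6 of 35 (17.1%) were near the shares of all genes. The genes higher in Sertoli-like cells were Hmgcs1, Pmvk, Tm7sf2, Ebp, Scd2, Elovl1, Star, Soat1 and Scarb1, and those higher in germ-like cells were Mvd, Fdps, Hsd17b7, Insig1, Scd1 and Elovl6. Cells of a library are not replicates, and these class differences are a description of 2 libraries.

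In the mevalonate part of the pathway, Hmgcs1, which condenses acetyl-CoA units into HMG-CoA, was the leading cholesterol synthesis transcript of Sertoli-like cells at 164 and 166 CPM, against 69.4 and 79.4 CPM in germ-like cells. Both libraries placed it 2.36-fold and 2.09-fold higher in Sertoli-like cells. The kinases that follow had lower levels in both of these classes. Mvk, mevalonate kinase, was highest in control myoid-like cells at 27.4 CPM and in Cnot3-cKO endothelial-like cells at 23.7 CPM. Pmvk, the next kinase, was highest in endothelial-like cells at 58.9 and 51.8 CPM and lowest in germ-like cells at 8.77 and 7.34 CPM. Mvd, which decarboxylates mevalonate diphosphate, had the reverse pattern, with 32.2 and 25.1 CPM in germ-like and 10.4 and 11.6 CPM in Sertoli-like cells.

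The enzymes of the isoprenoid and squalene steps had their highest levels in germ-like cells. Fdps, farnesyl diphosphate synthase, was the most abundant cholesterol synthesis transcript of germ-like cells at 185 and 239 CPM, and stood at 76.0 and 71.7 CPM in Sertoli-like, 35.8 and 22.6 in myoid-like and 30.9 and 31.1 in stromal-like cells. Fdft1, squalene synthase, which commits farnesyl diphosphate to sterols, followed with 73.1 and 108 CPM in germ-like against 37.3 and 35.4 in Sertoli-like cells. Idi1, which isomerises isopentenyl diphosphate, stood at 56.4 and 62.1 CPM in germ-like cells. The 2 enzymes that turn squalene into lanosterol, Sqle (squalene epoxidase) and Lss (lanosterol synthase), were also highest in germ-like cells, Sqle at 42.9 and 35.7 CPM and Lss at 14.1 and 13.2 CPM. For Sqle the germ-like and Sertoli-like levels in Cnot3-cKO, 35.7 and 34.5 CPM, did not differ beyond counting error.

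Among the enzymes that convert lanosterol to cholesterol, the sterol isomerase Ebp had the steepest contrast of the whole set. It stood at 82.4 and 93 CPM in Sertoli-like cells and at 3.46 and 4.00 CPM in germ-like cells, 23.8-fold and 23.2-fold apart, and free RNA alone would give 1.99 and 2.02 CPM of the germ-like level. In the other classes Ebp was measured at 25.2 and 20.8 CPM in myoid-like cells (log2 ratio -0.28, -0.47 to -0.08), 30.03 and 26.0 in stromal-like cells (-0.21, -0.34 to -0.08), 89.6 and 92.1 in macrophage-like cells (0.04, -0.41 to 0.49) and 35.8 and 38.8 in endothelial-like cells (0.12, -0.97 to 1.24). Among the 6 classes, only germ-like cells held Ebp below 20 CPM, in both libraries. The gene lies on the X chromosome (GRCm38 chromosome X, 8185329 to 8193512, minus strand). Msmo1, which oxidises a sterol methyl group, was highest in Sertoli-like cells at 78.6 and 82.2 CPM, with 35.7 and 45.7 CPM in germ-like cells. Hsd17b7, a ketosteroid reductase acting in the same demethylation, was a germ-like gene at 25.6 and 29.5 CPM against 8.13 and 7.94 in Sertoli-like cells. The dehydrogenase Nsdhl at 18.3 and 19.2 CPM and the last reductase of the pathway, Dhcr7, at 32.7 and 26.1 CPM were highest in germ-like cells by small margins, since Sertoli-like cells held 15.8 and 15.3 CPM of Nsdhl and 26.9 and 25.3 of Dhcr7. Cyp51, the lanosterol demethylase, was nearly level at 30.4 and 22.3 CPM in germ-like, 27.9 and 27.3 in Sertoli-like and 32.0 and 22.8 in myoid-like cells. Sc5d, a sterol desaturase, was the only gene highest in myoid-like cells in both libraries, at 36.0 and 36.4 CPM. Tm7sf2, a sterol reductase, was close to the floor, with its highest levels of 7.84 and 3.14 CPM in macrophage-like cells resting on 7 and 3 UMIs.

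Another sterol reductase of the same step, Lbr, whose protein also sits in the nuclear envelope, was one of the comparison genes and had the opposite distribution to Tm7sf2. Lbr stood at 72.2 and 77.9 CPM in germ-like against 13.4 and 13.2 CPM in Sertoli-like cells, 5.40-fold and 5.90-fold higher. Tm7sf2 stood at 0.605 and 1.14 CPM in germ-like and 2.79 and 3.11 CPM in Sertoli-like cells.

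The controllers of the pathway were divided by paralog. Srebf2, which mainly drives cholesterol genes, was highest in germ-like cells at 72.0 and 62.5 CPM with 45.0 and 42.9 in Sertoli-like cells, whereas Srebf1, which mainly drives fatty acid genes, was highest in Sertoli-like cells at 31.2 and 30.5 CPM with 18.1 and 15.6 in germ-like cells. The 2 INSIG genes divided in the same way. Insig1 stood at 60.6 and 62.4 CPM in germ-like and 16.5 and 16.98 in Sertoli-like cells, 3.66-fold and 3.68-fold higher in germ-like cells, and Insig2 at 29.1 and 30.8 in germ-like and 53.5 and 59.2 in Sertoli-like cells. Scap was spread over all classes, highest in control stromal-like cells at 74.5 CPM and in Cnot3-cKO Sertoli-like cells at 82.9 CPM.

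Fatty acid synthesis transcripts were led by Sertoli-like cells, which held 669 and 702 CPM over the 9 genes against 319 and 276 CPM in germ-like, 332 and 323 in stromal-like and 267 and 253 in myoid-like cells. A single gene held more of the Sertoli-like sum than the other 8 together. This was Scd2, a stearoyl-CoA desaturase that places the double bond in saturated fatty acids, which stood at 347 and 354 CPM in Sertoli-like cells (log2 ratio 0.03, 0.00 to 0.06) and at 23.2 and 21.1 CPM in germ-like cells (-0.13, -0.30 to 0.03), 14.99-fold and 16.8-fold apart, with 6.79 and 10.1 CPM of the germ-like level given by free RNA. The other classes held intermediate levels of Scd2, 101 and 88.5 CPM in myoid-like (-0.19, -0.28 to -0.09), 109 and 101 in stromal-like (-0.12, -0.18 to -0.05), 61.6 and 52.3 in macrophage-like (-0.24, -0.82 to 0.34) and 89.6 and 119 in endothelial-like cells (0.41, -0.23 to 1.06).

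The paralog Scd1 had the reverse contrast at a far lower level. It stood at 2.79 and 3.72 CPM in germ-like cells (log2 ratio 0.42, -0.01 to 0.83) and 0.631 and 0.858 CPM in Sertoli-like cells (0.44, -0.26 to 1.18), 4.42-fold and 4.33-fold higher in germ-like cells. Scd1 was highest in stromal-like cells at 3.15 and 3.97 CPM (0.34, -0.04 to 0.72), stood at 2.22 CPM in both libraries of myoid-like cells (0.00, -0.64 to 0.65), and was seen once in control macrophage-like and once in control endothelial-like cells. The Scd genes are neighbouring paralogs on chromosome 19, and how far reads of Scd1, Scd2 and Scd3 could be assigned to the wrong copy was not tested. Elovl1, which elongates saturated very long chains, was lowest in germ-like cells at 4.28 and 4.20 CPM (log2 ratio -0.03, -0.41 to 0.34) and 4.75-fold higher in Sertoli-like cells of each library, at 20.3 and 19.9 CPM (-0.03, -0.16 to 0.10). Its highest class was macrophage-like at 43.7 and 76.4 CPM (0.81, 0.23 to 1.41), with 33.3 and 43.1 in endothelial-like (0.38, -0.70 to 1.504), 29.1 and 27.1 in stromal-like (-0.10, -0.23 to 0.03) and 21.4 and 19.6 in myoid-like cells (-0.13, -0.33 to 0.07).

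The remaining fatty acid genes differed less between the 2 main classes. Fasn, fatty acid synthase, was highest in Sertoli-like cells at 108 and 122 CPM, with 71.3 and 53.1 CPM in germ-like cells. Acly, which makes cytosolic acetyl-CoA from citrate, was highest in germ-like cells at 95.9 and 90.5 CPM with 81.0 and 86.1 in Sertoli-like cells, and Acss2, which makes acetyl-CoA from acetate, stood at 28.1 and 27.6 CPM in germ-like against 16.2 CPM in Sertoli-like cells of both libraries. Acaca, the acetyl-CoA carboxylase that supplies malonyl-CoA, was highest in germ-like cells of control at 42.2 CPM and in Sertoli-like cells of Cnot3-cKO at 46.7 CPM. Elovl5, which elongates polyunsaturated fatty acids, was highest in stromal-like cells at 60.4 and 61.5 CPM.

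Of the 4 handling genes, Abca1, the exporter of cholesterol to lipoproteins, marked the macrophage-like cells at 461 CPM (418 to 508) and 582 CPM (535 to 632), from 412 and 556 UMIs. Its next levels were 128 and 101 CPM in endothelial-like and 88.6 and 94.9 CPM in stromal-like cells. Scarb1, a receptor for high-density lipoprotein, was highest in endothelial-like cells at 215 and 201 CPM and next in myoid-like cells at 137 and 130 CPM, with 65.1 and 59.3 in Sertoli-like and 21.9 and 25.03 in germ-like cells. Soat1, which esterifies cholesterol for storage, was highest in macrophage-like cells at 92.97 and 93.2 CPM and stood at 74.5 and 76.1 CPM in Sertoli-like against 18.0 and 21.0 in germ-like cells. Star, which carries cholesterol into mitochondria for steroid synthesis, was low in every class, at 8.42 and 11.5 CPM in Sertoli-like cells and at 20.5 CPM in control endothelial-like cells, the latter from 8 UMIs.

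In germ-like cells, where Cnot3 was targeted, the summed members did not differ between genotypes, at 1353 and 1356 CPM (log2 ratio 0.00, -0.02 to 0.02), but the roles did not move alike. Cholesterol synthesis was higher in Cnot3-cKO, 670 and 755 CPM (0.17, 0.14 to 0.20), whereas fatty acid synthesis, 319 and 276 CPM (-0.21, -0.26 to -0.17), and SREBP control, 249 and 216 CPM (-0.21, -0.26 to -0.16), were lower. Within stages of germ-like cells, described further on, the SREBP control ratio was nearer 0, at -0.03 (-0.10 to 0.04) in stem cell-like, -0.06 (-0.42 to 0.28) in progenitor-like and -0.14 (-0.23 to -0.05) in differentiating-like cells. Markers of other cell types were also higher in the Cnot3-cKO germ-like cells. The 11 Sertoli markers summed to 243 and 353 CPM (0.54, 0.50 to 0.58) and the 8 macrophage markers to 1.51 and 4.62 CPM (1.61, 1.15 to 2.08), and their part in these differences was not tested. The cholesterol sum rested on few genes. Fdps at a log2 ratio of 0.37 (0.32 to 0.42), Fdft1 at 0.57 (0.49 to 0.64) and Msmo1 at 0.36 (0.24 to 0.47) were higher, while Mvd at -0.36, Cyp51 at -0.45, Dhcr7 at -0.33 and Sqle at -0.27 were lower, and the median of the 16 genes with at least 100 UMIs was -0.01 against 0.02 over all 12494 such genes. Of these 16 genes, 8 lay above 0 and 8 below, and of the 9 fatty acid genes 7 lay below. Over all 12494 genes 47.9% lay below 0.

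**Figure D2:**
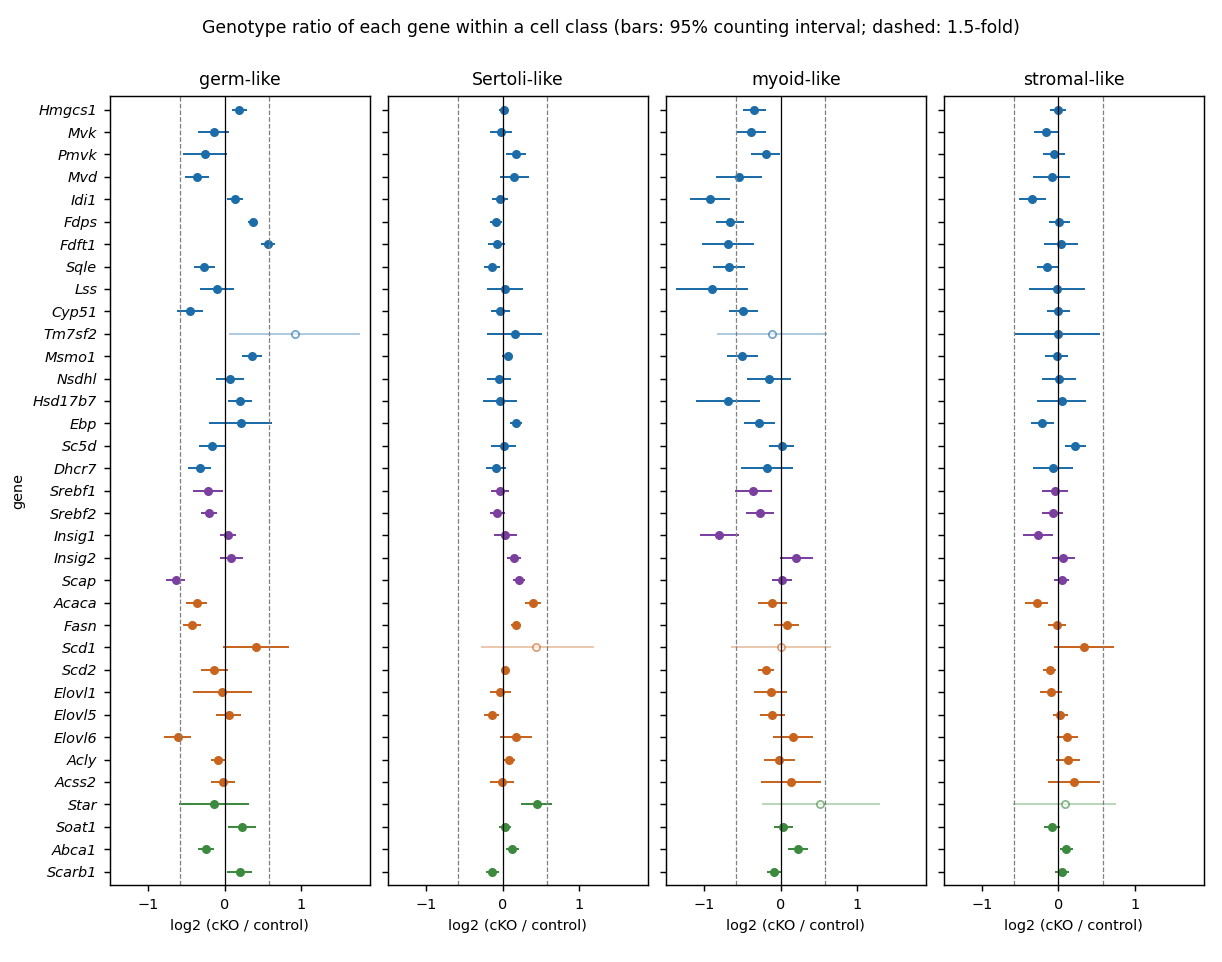
Log2 ratio of Cnot3-cKO over control for each gene in germ-like, Sertoli-like, myoid-like and stromal-like cells, with 95% counting intervals, dashed lines at 1.5-fold and open points for genes under 100 UMIs. Blue marks cholesterol synthesis, purple SREBP control, orange fatty acid synthesis and green cholesterol handling. In myoid-like cells 15 of 16 cholesterol synthesis genes lie below 0 (51.3% of all genes did so), while all filled Sertoli-like and stromal-like points stay inside the dashed lines.

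No gene of the set was at least 1.5-fold higher in Cnot3-cKO germ-like cells and 2 of 34 were at least 1.5-fold lower, against 7.33% and 3.76% of all genes. Under the filters stated in the study, which left fewer germ cells, 2 of 29 were at least 1.5-fold higher and 4 lower, against 5.69% and 5.57% of all genes. Fdps and Fdft1 were the higher ones, and Sqle, Cyp51, Dhcr7 and Elovl6 the lower ones. Scap, the escort of the SREBPs, stood at 68.9 CPM in control and 44.2 CPM in Cnot3-cKO (log2 ratio -0.64, -0.75 to -0.53). In the other classes Scap was 71.4 and 82.9 CPM in Sertoli-like (0.22, 0.15 to 0.28), 59.8 and 60.5 in myoid-like (0.02, -0.10 to 0.13), 74.5 and 76.6 in stromal-like (0.04, -0.04 to 0.12), 33.6 and 24.1 in macrophage-like (-0.48, -1.33 to 0.35) and 25.6 and 38.8 in endothelial-like cells (0.60, -0.59 to 1.88). Among the 4 larger classes it was lower in Cnot3-cKO in germ-like cells alone. Under the filters stated in the study, with 186 and 55 germ cells, the Scap ratio was -0.30 (-0.74 to 0.11), and with cells thinned to 10000 UMIs it was -0.49. Scap lies on GRCm38 chromosome 9, 110333288 to 110384950, plus strand.

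Elovl6, which elongates palmitate to stearate, was the second, at 29.1 and 19.0 CPM in germ-like cells (log2 ratio -0.61, -0.78 to -0.45). It stood at 8.25 and 9.29 CPM in Sertoli-like (0.17, -0.03 to 0.37), 13.2 and 14.7 in myoid-like (0.16, -0.09 to 0.41) and 28.6 and 30.98 CPM in stromal-like cells (0.12, -0.01 to 0.24) with intervals that include 0 in all 3. The 10.1 and 2.09 CPM in macrophage-like cells (-2.27, -5.52 to 0.00) and the 5.12 and 6.47 in endothelial-like cells (0.34, -2.79 to 3.92) rested on few UMIs. With mitochondrial UMIs limited to 10%, the Elovl6 ratio of germ-like cells was -0.40, and under the filters of the study -1.34. Elovl6 lies on GRCm38 chromosome 3, 129532355 to 129638495, plus strand. Tm7sf2 also differed by over 1.5-fold (0.92, 0.07 to 1.76) but on 28 and 24 UMIs, below the minimum of 100.

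The germ-like cells of the 2 libraries were made up of different stages. Spermatogonial stem cell (SSC)-like cells made up 34.4% of the germ-like cells in control and 72.8% in Cnot3-cKO, progenitor-like cells 18.9% and 1.09%, and differentiating-like cells 46.7% and 26.1%. The split depended on the cells kept. SSC-like cells were 132 of 1002 and 311 of 473 germ-like cells with at least 3000 UMIs. They were 165 of 491 and 208 of 301 with mitochondrial UMIs limited to 10%, and 68 of 186 and 34 of 55 under the study's filters. By number, SSC-like cells of the main set were 383 in control and 335 in Cnot3-cKO, 4.93% and 3.80% of all barcodes that passed the filters. The paper, with its own clusters, reported fewer presumed stem cells in the knockout, and by immunostaining a loss of ZBTB16-positive undifferentiated spermatogonia. The shares of germ-like cells given here are a different measure. Within the SSC-like class most control cells lay in 1 cluster (305 of 383) and most Cnot3-cKO cells in another (274 of 335) that held no control cell, so a cluster, a library and a genotype cannot be told apart there. Without that cluster the cholesterol synthesis ratio of germ-like cells was 0.02 in place of 0.17, and the fatty acid ratio was -0.23 in place of -0.21.

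In control germ cells the sums differed little between stages. Cholesterol synthesis stood at 708 CPM in SSC-like, 680 in progenitor-like and 638 in differentiating-like cells, and fatty acid synthesis at 330, 342 and 302 CPM. Single genes varied more. Between SSC-like and differentiating-like cells, 4 of 30 genes (Msmo1, Scd2, Elovl6 and Abca1) were at least 1.5-fold higher in SSC-like cells in both libraries and 2 (Sc5d and Scarb1) at least 1.5-fold higher in differentiating-like cells, against 11.6% and 13.2% of all genes. Elovl6 had the widest step, from 50.5 CPM in SSC-like and 32.4 in progenitor-like to 11.8 CPM in differentiating-like cells of control, and Scd2 went from 34.99 to 23.8 to 14.2 CPM. Abca1 stood at 93.3, 106 and 40.1 CPM along the same stages. Scarb1 ran the other way, from 15.1 through 21.2 to 27.1 CPM.

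**Figure D3:**
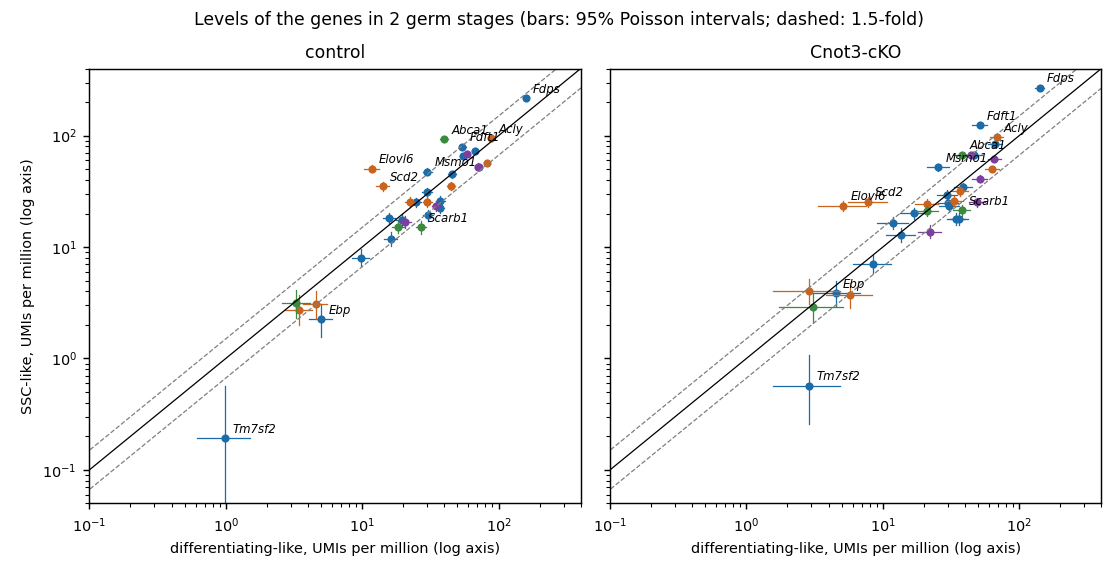
Level of each gene in SSC-like cells (vertical) against differentiating-like cells (horizontal), in CPM on log axes, for the control (left) and Cnot3-cKO library (right), with 95% Poisson intervals, a solid line of equality, dashed lines at 1.5-fold and colours by role (blue cholesterol synthesis, purple SREBP control, orange fatty acid synthesis, green cholesterol handling). Elovl6 lies above the lines in both panels, at 50.5 against 11.8 in control and 23.5 against 5.14 in Cnot3-cKO.

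Within stages, the genotypes differed most in Elovl6. It was 50.5 and 23.5 CPM in SSC-like cells (log2 ratio -1.11, -1.29 to -0.93) and 11.8 and 5.14 CPM in differentiating-like cells (-1.19, -1.85 to -0.60). Stage markers also differed inside the SSC-like class, where the differentiating markers summed to 300.3 and 475 CPM and the meiotic markers to 416 and 600.2 CPM, and their part in the Elovl6 difference was not tested. Elovl6 differed between SSC-like clusters, and in one of them between genotypes. Control and Cnot3-cKO cells stood at 48.9 and 42.9 CPM in the cluster with most control cells, where only 19 Cnot3-cKO cells were found, and at 57.1 and 38.1 CPM (log2 ratio -0.58, -1.01 to -0.17) in a second cluster of 78 and 42 cells, while the cluster made up of Cnot3-cKO cells alone held 20.3 CPM. The 3 differentiating-like clusters held Elovl6 at 5.27 and 2.97 CPM (253 and 60 cells), 27.6 and 29.6 CPM (152 and 13 cells) and 0.288 CPM and 0 (115 and 47 cells), and the cluster with the high level made up more of the control cells. For Scap the stage values were 52.6 and 41.2 CPM in SSC-like (-0.35, -0.50 to -0.20), 91.2 and 88.2 in progenitor-like (-0.05, -0.71 to 0.55) and 71.0 and 51.6 CPM in differentiating-like cells (-0.46, -0.66 to -0.26). The highest stage, the progenitor-like cells, counted 210 control and 5 Cnot3-cKO cells, and no stage alone reached the ratio of -0.64 of the pooled germ-like cells. In the SSC-like clusters Scap stood at 55.8 and 59.6 CPM, at 39.8 and 29.0 CPM, and at 41.6 CPM in the one of Cnot3-cKO cells alone.

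In SSC-like cells 1 of 32 genes was at least 1.5-fold higher in Cnot3-cKO and 1 was at least 1.5-fold lower, against 9.67% and 4.25% of all genes. The higher gene was Fdft1, with 79.3 and 125 CPM (log2 ratio 0.65, 0.55 to 0.76) and 124 CPM in the cluster of Cnot3-cKO cells alone, and the lower one was Elovl6. Fdps was at 216 and 269 CPM (0.32, 0.25 to 0.38), 274 CPM in that cluster. In differentiating-like cells neither was higher, since Fdft1 stood at 54.1 and 51.4 CPM (-0.07, -0.28 to 0.13) and Fdps at 158 and 141 CPM (-0.16, -0.28 to -0.05). There no gene was at least 1.5-fold higher and 2 of 32, Scd2 and Elovl6, were at least 1.5-fold lower, against 3.04% and 5.11% of all genes. The cholesterol synthesis sum of differentiating-like cells was 638 and 590 CPM (-0.11, -0.17 to -0.05). Of its 16 genes 13 lay below 0, against 49.1% of all 10217 genes. The direction of the sum changed with the mitochondrial limit and with centring of the genes in each library, to 0.075 and 0.10.

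Sertoli-like cells carried nearly the same levels in both genotypes. The members summed to 1768 and 1828 CPM (log2 ratio 0.05, 0.03 to 0.06), cholesterol synthesis to 670 and 677 CPM (0.02, -0.01 to 0.04), and 0 of 34 genes passed 1.5-fold in either direction, against 1.13% of all genes higher and 0.961% lower. The largest departures were Star at 8.42 and 11.5 CPM (0.45, 0.26 to 0.64) and Acaca at 35.5 and 46.7 CPM (0.40, 0.31 to 0.49).

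Myoid-like cells held the broadest difference between genotypes, although the Cre is driven by a germ-cell gene. Cholesterol synthesis summed to 365 CPM (356 to 374) in control and 275 CPM (268 to 283) in Cnot3-cKO myoid-like cells, a log2 ratio of -0.41 (-0.46 to -0.35). Of its 16 genes 15 lay below 0, against 51.3% of all 11043 genes, with a median of -0.50 against -0.01 over all genes. Of 32 genes, 0 were at least 1.5-fold higher and 7 at least 1.5-fold lower, against 1.81% and 0.924% of all genes. These 7 are named here after their values were seen. Idi1 stood at 18.9 and 10.0 CPM (-0.92, -1.17 to -0.67), Lss at 5.87 and 3.16 (-0.89, -1.36 to -0.44), and Insig1, itself a target of the SREBPs, at 19.3 and 11.1 (-0.80, -1.05 to -0.56). Fdft1 was 10.2 and 6.33 CPM (-0.69), Hsd17b7 6.82 and 4.25 (-0.68), Sqle 28.1 and 17.6 (-0.68) and Fdps 35.8 and 22.6 (-0.66). The exception was Sc5d at 36.0 and 36.4 CPM (0.01, -0.14 to 0.17). Fatty acid synthesis was nearly level at 267 and 253 CPM (-0.08, -0.14 to -0.03), and handling genes at 262 and 266 CPM (0.03, -0.03 to 0.08). Among the comparison genes, Stard4, a sterol carrier, stood at 9.03 and 5.34 CPM (-0.76, -1.12 to -0.40).

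Several measures moved with this difference, and their part in it was not tested. Immediate-early genes, 7 transcripts such as Fos and Jun that cells switch on soon after a stimulus, stood at 1641 and 4014 CPM in myoid-like cells. Cells in which they took over 0.3% of UMIs were 13.1% of control and 56.6% of Cnot3-cKO myoid-like cells. Ranges of that share were chosen after the data were seen. Within them the cholesterol synthesis ratio was -0.64 (-0.75 to -0.52) under 0.1%, -0.30 (-0.39 to -0.21) from 0.1% to 0.3% and -0.27 (-0.38 to -0.16) above it. Stromal-like cells also held more immediate-early transcripts in Cnot3-cKO, 1012 and 2497 CPM, with a cholesterol synthesis sum of 355 and 343 CPM (-0.05, -0.09 to -0.01). Their clusters differed in that ratio. It was -0.17 (-0.23 to -0.11) in the cluster of 1197 and 1116 cells and -0.12 (-0.21 to -0.03) in that of 358 and 247. In the cluster of 849 and 944 cells it was 0.08 (0.02 to 0.13). Free RNA was 13.8% and 9.45% of the UMIs of myoid-like cells, and subtracting it gave -0.47. A small cluster with 2 control and 86 Cnot3-cKO cells belonged to the class, and without it the ratio was -0.38 (-0.43 to -0.33). Cnot3 stood at 44.5 CPM in both libraries of myoid-like cells.

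**Figure D4:**
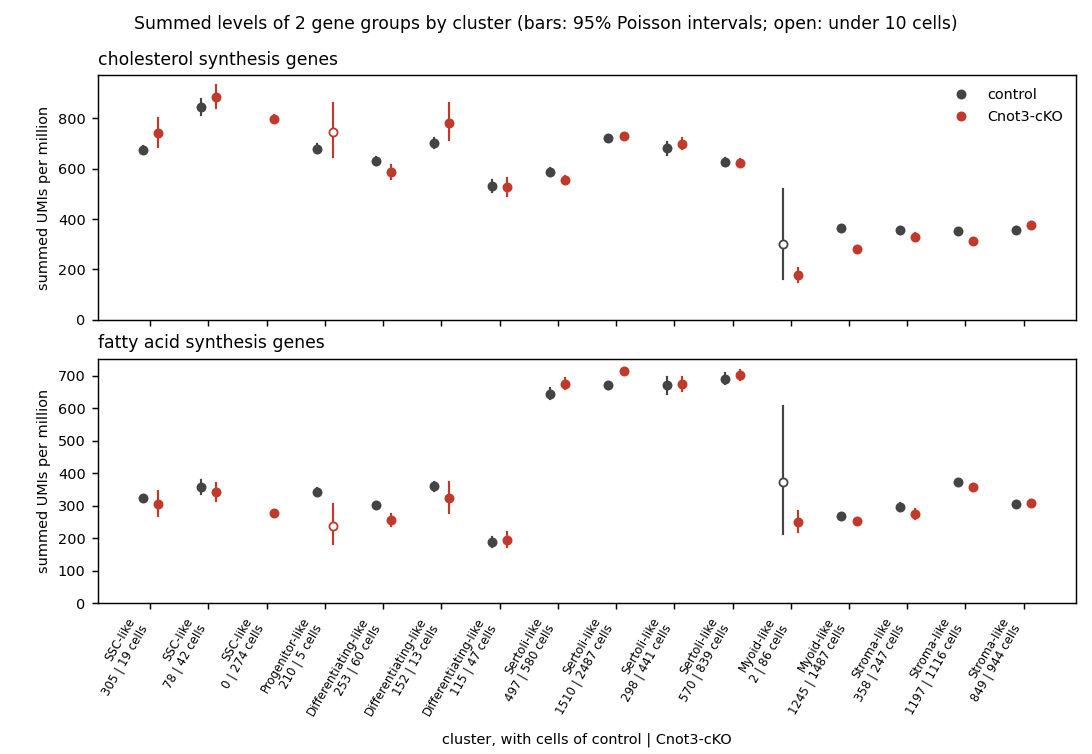
Summed level, in CPM, of the 17 cholesterol synthesis genes (top) and the 9 fatty acid synthesis genes (bottom) in each cluster, for control (grey) and Cnot3-cKO (red), with 95% Poisson intervals and open points for under 10 cells. For cholesterol synthesis the main myoid-like cluster stands at 365 in control and 280 in Cnot3-cKO, while the cluster of Cnot3-cKO germ cells alone stands at 799 with no control counterpart.

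The 250 bases before the start are shown for Hmgcs1 and for some of the genes that were lower in myoid-like cells. The part of their motifs in that difference was not tested. Windows were held for 28 of the 35 genes, from RefSeq on GRCm38.p6, and both strands were searched for CCAAT, the box bound by the factor NF-Y, and for TCACNCCAC, the core of a sterol regulatory element bound by the SREBPs. No match of one motif overlapped a match of the other in the windows printed here. Counts were made over the whole windows held around the starts, of which only the first 250 bases are printed. CCAAT was present in 24 of the 28 windows (85.7%), against 37.4% of all 32851 windows held and 41.1% of 27025 genes. It was in all 14 held for cholesterol synthesis, among them Sc5d, which was level in myoid-like cells, and in 5 of 7 for fatty acid synthesis. Scap, Acaca, Elovl6 and Abca1 had none. TCACNCCAC was found for 1 gene, Hmgcs1 (3.57%, against 1.24% of windows and 1.44% of genes). Below are the 250 bases before the start of Hmgcs1 and of 4 of the 7 genes that were lower in myoid-like cells. The rest of the 7, Fdps, Fdft1 and Sqle, had no window. The sequences read 5' to 3' on the strand of the gene, with the matches in capitals (a CCAAT box on the opposite strand reads ATTGG). They lie at chr13:119690101-119690350 on the plus strand for Hmgcs1, chr13:8885356-8885605 (plus) for Idi1, chr10:76531355-76531604 (plus) for Lss, chr1:169969206-169969455 (minus) for Hsd17b7 and chr5:28071162-28071411 (plus) for Insig1. The starts used here are those of RefSeq. In another annotation, GENCODE, Idi1, Lss, Hsd17b7 and Insig1 begin inside the printed stretch. Idi1 begins there at position 8885501, ahead of both its CCAAT boxes.
Hmgcs1: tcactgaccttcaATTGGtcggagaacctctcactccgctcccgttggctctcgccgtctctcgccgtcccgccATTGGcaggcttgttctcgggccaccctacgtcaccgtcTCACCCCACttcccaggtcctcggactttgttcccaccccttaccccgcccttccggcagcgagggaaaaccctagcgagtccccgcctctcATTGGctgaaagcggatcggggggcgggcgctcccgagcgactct
Idi1: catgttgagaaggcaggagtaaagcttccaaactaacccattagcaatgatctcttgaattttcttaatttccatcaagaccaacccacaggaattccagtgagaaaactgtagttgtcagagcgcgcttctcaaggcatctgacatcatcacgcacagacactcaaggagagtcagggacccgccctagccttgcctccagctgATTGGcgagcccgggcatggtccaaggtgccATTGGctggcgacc
Lss: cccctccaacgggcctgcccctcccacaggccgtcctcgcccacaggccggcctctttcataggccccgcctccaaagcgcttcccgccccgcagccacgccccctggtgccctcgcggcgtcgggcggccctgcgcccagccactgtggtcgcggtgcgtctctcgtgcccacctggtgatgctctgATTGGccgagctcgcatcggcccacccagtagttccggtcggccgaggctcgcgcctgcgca
Hsd17b7: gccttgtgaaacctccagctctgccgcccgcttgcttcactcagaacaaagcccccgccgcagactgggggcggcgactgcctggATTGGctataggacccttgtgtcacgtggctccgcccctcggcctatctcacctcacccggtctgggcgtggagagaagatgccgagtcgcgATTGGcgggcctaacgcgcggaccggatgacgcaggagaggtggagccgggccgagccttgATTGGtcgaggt
Insig1: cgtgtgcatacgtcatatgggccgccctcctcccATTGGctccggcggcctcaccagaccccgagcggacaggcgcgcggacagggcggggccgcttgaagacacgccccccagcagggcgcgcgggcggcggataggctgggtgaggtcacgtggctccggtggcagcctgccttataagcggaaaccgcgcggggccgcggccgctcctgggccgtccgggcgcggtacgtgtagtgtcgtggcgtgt
In each of the 5 windows the CCAAT boxes lay on the opposite strand, with 3 in Hmgcs1, 2 in Idi1, 1 in Lss, 3 in Hsd17b7 and 1 in Insig1. In Hmgcs1 the sterol element began 137 bases before the start, between CCAAT boxes at 176 and 45 bases. A match is a stretch of letters and was not tested for binding, and Hmgcs1, with both motifs, was itself less than 1.5-fold lower in myoid-like cells, at 48.4 and 38.2 CPM (log2 ratio -0.34, -0.48 to -0.20).

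Stromal-like cells, counted beside the myoid-like cells as the other interstitial class, had 0 of 34 genes past 1.5-fold in either direction, against 0.907% of all genes higher and 0.75% lower. The member farthest from 0 was Idi1, at 21.5 and 16.9 CPM (log2 ratio -0.34, -0.51 to -0.18), followed by Scd1. Of 37 comparison genes, 1 was at least 1.5-fold higher, the steroid dehydrogenase Hsd3b1 at 8.97 and 20.4 CPM, a Leydig marker, and 1 lower, the exporter Abcg1 at 2.67 and 1.75 CPM.

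Macrophage-like and endothelial-like cells were too few for a comparison of single genes, since 5 and 1 of the 35 genes reached 100 UMIs. Cholesterol synthesis summed to 318 and 296 CPM in macrophage-like cells (log2 ratio -0.10, -0.35 to 0.14) and to 333 and 298 CPM in endothelial-like cells (-0.16, -0.52 to 0.20), differences within counting error. The handling genes were at 595 and 714 CPM in macrophage-like cells (0.26, 0.10 to 0.43), where free RNA took 34.6% of control and 13.1% of Cnot3-cKO UMIs and where T cell markers summed to 399 and 40.8 CPM, stromal markers to 653 and 169 CPM and macrophage markers to 12989 and 16690 CPM. The part of these gaps in the difference was not tested.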

How the data were processed

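The authors aligned the reads to mm10 and counted UMIs per gene and barcode with Cell Ranger 3.0.1. The methods name NextSeq and NovaSeq sequencers. The deposited values are raw counts, in 1 matrix per genotype that lists all barcodes, called or not, and merges the 2 samples of that genotype (with titles that begin NS and NOV). From these, cell-holding barcodes were taken with Cell Ranger's order-of-magnitude threshold for 3000 expected cells, and those with over 20% mitochondrial UMIs (82 control and 68 Cnot3-cKO) or called doublets by Scrublet (499 and 454) were left out. The filters stated in the study kept 186 and 55 germ cells, so they served as an alternative. Cells were clustered with scanpy 1.11.5 (2500 variable genes without lipid genes, 30 components, 15 neighbours, Leiden resolution 0.5), and clusters were named from fixed markers. Counts were summed per class and library. Levels have exact Poisson intervals and ratios of 2 sums exact conditional intervals, at 95%, covering counting error only. The ratio intervals were tried on simulated independent Poisson counts, the model they assume, without variation between cells or libraries. With 1 library per genotype no test was made. Genes whose UMIs in a class came to 100 or more over both libraries entered counts of genes past 1.5-fold (2-fold between classes). All members are described; a gene was given in all classes if past 1.5-fold between genotypes in germ-like or Sertoli-like cells with an interval without 0, or 4-fold between these classes in both libraries, and comparison genes are named under the same limits. The members and lists were chosen with earlier results of these data known. Alternatives covered filters, doublets, free RNA, scaling, thinning to 10000 UMIs and clustering. Some comparison genes are not reported here.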

Additional observations from a re-analysis of the deposited data

Results flagged for a closer look

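For 7 of the genes the genotype ratio lay on opposite sides of 0 in germ-like and Sertoli-like cells, each with a counting interval that left out 0. These were 7 of the 33 with at least 100 UMIs in both classes (21.2%), against 13.6% of all 10710 such genes. With 1 library per genotype the difference between the 2 classes was not tested. Scap, the escort of the SREBPs, had the widest gap, with a log2 ratio of -0.64 in germ-like and 0.22 in Sertoli-like cells, -0.856 apart. The carboxylase Acaca was at -0.36 and 0.40, a gap of -0.761, and fatty acid synthase, Fasn, at -0.43 and 0.17, a gap of -0.597. Abca1, the cholesterol exporter, stood at -0.24 and 0.13, -0.37 apart, and Acly, which makes acetyl-CoA from citrate, at -0.08 and 0.09, -0.172 apart. In the other direction, Fdps was at 0.37 in germ-like and -0.08 in Sertoli-like cells, 0.454 apart, and the lipoprotein receptor Scarb1 at 0.20 and -0.13, 0.329 apart. Germ-like cells of the 2 libraries differed in stage makeup as given above, and within differentiating-like cells Fdps was at -0.16, against 0.32 in SSC-like cells. The study's filters left 186 and 55 germ cells. There only Fdps kept its germ-like sign with an interval without 0, at 0.62 (0.43 to 0.81). Scap at -0.30, Fasn at -0.34 (-0.74 to 0.05) and Abca1 at -0.33 (-0.72 to 0.05) kept theirs with intervals that included 0. Acaca at 0.02, Acly at 0.06 and Scarb1 at -0.05 changed sign, also with intervals that included 0.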

How the results depend on the processing

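Of 371 recomputed values 293 stayed within the counting interval or within 1.5 times the count and 74 left it. Another 4 changed direction from a main value whose interval left out 0. Sign changes of values whose main interval included 0 are not among these 4. The germ-like ratio of the summed members kept its sign in 12 of 18 alternatives, and the Sertoli-like cholesterol synthesis ratio in 9 of 13. The summed members' log2 genotype ratio of germ-like cells (0.00) was -0.0402 without mitochondrial and ribosomal protein genes in the total, 0.11 under the study's filters, 0.0366 in SSC-like, -0.11 in progenitor-like and -0.14 in differentiating-like cells, and -0.0726 as the mean of the 3 stages. For Sertoli-like cells (0.05) it was 0.0127 with median-of-ratios scaling, 0.0330 without mitochondrial and ribosomal genes, 0.0321 under the study's filters and 0.0338 with a 10% mitochondrial limit. For the interstitial classes together (-0.08) it was -0.12 with free RNA subtracted, -0.0626 with median-of-ratios scaling, -0.0592 without mitochondrial and ribosomal genes, -0.0602 with doublets kept, -0.17 in myoid-like and -0.0248 in stromal-like cells alone. Sertoli-like over germ-like cells (0.39 in control, 0.43 in Cnot3-cKO) gave 0.55 with median-of-ratios scaling, 0.32 and 0.39 without mitochondrial and ribosomal genes, 0.44 and 0.36 under the study's filters, and 0.38 in Cnot3-cKO with the 10% limit. SSC-like over differentiating-like cells of control (0.10) gave 0.23 and 0.18 under these 2 scalings, 0.29 with at least 3000 UMIs, 0.0244 and 0.14 at Leiden resolutions of 0.3 and 1.0, and 0.16 after thinning. At 2-fold 0 genes remained past the limit in germ-like and myoid-like cells, and the study's filters, with 186 and 55 germ cells, put 6 of 29 past 1.5-fold, 2 higher and 4 lower, against 5.69% and 5.57% of all genes. The cholesterol synthesis ratio changed direction in differentiating-like cells (-0.11), to 0.075 with the 10% limit and 0.10 with genes centred, and in stromal-like cells (-0.05), to 0.0278 and 0.0492 in the 2 upper ranges of immediate-early share. The causes were not tested. In myoid-like cells it stayed below 0 in all 16 alternatives, from -0.64 to -0.27. The immediate-early ranges and the omission of clusters mostly of 1 library were chosen after seeing the data. With doublets kept no myoid-like cluster was named. No paired analysis was possible because the matrices merge the samples of a genotype and the labels carry no replicate numbers, and for the same reason no sample could be left out. The macrophage-like and endothelial-like values are limited by their few cells.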

Other observations

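Of the 50 comparison lipid genes, 38 had at least 100 UMIs in germ-like cells, and 2 were at least 1.5-fold higher and 2 at least 1.5-fold lower in Cnot3-cKO (5.26% each way, against 7.33% and 3.76% of all genes). Scd3, a desaturase paralog seen mostly in germ-like cells, stood at 9.09 CPM in control and 18.5 CPM in Cnot3-cKO (log2 ratio 1.03, 0.83 to 1.23), and within SSC-like cells at 10.1 and 21.8 CPM. Nr1h3, the sterol-sensing receptor LXR alpha, was at 1.101 and 2.62 CPM (1.25, 0.67 to 1.83) on 51 and 55 UMIs. Its paralog Nr1h2, LXR beta, was at 47.7 and 31.4 CPM (-0.60, -0.73 to -0.48), and the lipoprotein receptor Lrp8 at 10.3 and 6.63 CPM (-0.64, -0.92 to -0.36). Lrp8 was level within stages, at 3.07 and 3.03 CPM in SSC-like and 19.3 and 18.5 CPM in differentiating-like cells. In Sertoli-like cells 0 of 41 comparison genes passed 1.5-fold.

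Elongases and desaturases also divided the 2 main classes. Elovl2, which elongates polyunsaturated fatty acids, stood at 93.1 and 134 CPM in Sertoli-like against 7.24 and 7.01 in germ-like cells, and Elovl3 at 5.31 and 4.96 against 3 and 4 UMIs, whereas Elovl4 was higher in germ-like cells, at 5.90 and 6.53 against 1.12 and 1.06 CPM. Scd3 was 62.5-fold and 100.2-fold higher in germ-like than in Sertoli-like cells, the reverse of Scd2. The acyl-CoA synthetases divided too, with Acsl4 (40.6 and 43.4 CPM) and Acsl5 (9.63 and 10.3) on the Sertoli-like side and Acsl1 (32.8 and 35.4 in germ-like cells) on the other. Me1, which supplies NADPH for fatty acid synthesis, reached 660 and 682 CPM in Sertoli-like against 42.1 and 43.9 in germ-like cells, and Mlxipl, a carbohydrate-responsive transcription factor, 29.8 and 34.4 against 4.19 and 6.01. Stard4, a sterol carrier, was higher in germ-like cells, at 53.2 and 58.7 against 7.35 and 7.69 CPM. Apoe, which encodes apolipoprotein E, stood at 19165 and 25490 CPM in macrophage-like cells.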
